A study of Mus musculus with 8 samples.

Results

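The Maf, Bach and Nrf genes encode bZIP transcription factors that bind DNA as pairs. The 8 genes described here are the large Maf gene Maf, the small Maf genes Mafk, Mafg and Maff, and the partner genes Bach1, Bach2, Nfe2l1 and Nfe2l2. They were taken as every probe set of the array whose only gene symbol was one of these names, which gave 18 probe sets of 45101. The series compared double-positive thymocytes, immature T cells that carry CD4 and CD8, of c-Myb sufficient mice (4 by label) and c-Myb deficient mice (also 4), with 1 Affymetrix MOE430 2.0 array per mouse. All mice were 4 to 5 weeks old and Tcra-/-, so their thymocytes make no alpha-beta T-cell receptor and stop before positive selection. The cells were enriched with anti-CD4 magnetic columns. The source names give Cd4-Cre, a recombinase driven by Cd4 regulatory sequence, to both groups. They give Mybf/f to the arrays titled Control and Mybf/w, a floxed and a wild-type allele, to those titled Mutant, which runs against the genotype field. The groups are therefore named by title and genotype field, and every difference is deficient minus sufficient as labelled.

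A bZIP protein reads DNA with a basic region and pairs through a leucine zipper. Large Maf proteins carry a domain that activates transcription, and c-Maf, the product of Maf, is known in T cells as a regulator of cytokine genes and of interleukin-17-producing cells. Small Maf proteins lack such a domain and act as the shared partners of the others: with Nrf1 (Nfe2l1) or Nrf2 (Nfe2l2) they activate genes through antioxidant response elements, and with Bach1 or Bach2 they repress genes through related sites. Nrf2 is held low by Keap1 and drives glutathione and NADPH genes, Nrf1 drives proteasome genes, Bach1 represses haem and iron genes, and Bach2 restrains effector genes in lymphocytes.

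Promoter sequence is shown for Mafg and Mafk, the small Maf genes whose signals passed the test in opposite directions. RefSeq promoters on GRCm38.p6 were at hand for 7 of the 8 genes. The 250 bases before the start site are printed, Mafg from chr11:120633548-120633797 on the minus strand and Mafk from chr5:139791286-139791535 on the plus strand. Capitals mark matches, on either strand, to the Myb core motif (CAACNG or TAACNG), the antioxidant response element core (TGACNNNGC) or the Maf core motif (TGCTGA).
Mafg: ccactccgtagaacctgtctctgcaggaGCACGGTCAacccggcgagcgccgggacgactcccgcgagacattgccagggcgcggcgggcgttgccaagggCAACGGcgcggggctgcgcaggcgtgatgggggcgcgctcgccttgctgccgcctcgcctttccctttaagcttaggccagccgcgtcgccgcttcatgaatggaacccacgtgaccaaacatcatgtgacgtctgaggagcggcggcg
Mafk: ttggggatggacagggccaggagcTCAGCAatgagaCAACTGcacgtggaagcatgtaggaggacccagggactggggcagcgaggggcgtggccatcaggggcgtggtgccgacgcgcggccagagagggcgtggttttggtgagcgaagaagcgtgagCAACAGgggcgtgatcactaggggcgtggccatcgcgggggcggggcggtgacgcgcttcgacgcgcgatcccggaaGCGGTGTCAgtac
The Mafg window held 1 Myb core match, 149 bases before the start, and 1 antioxidant response element core, 222 bases before it. The Mafk window held 2 Myb core matches, 1 antioxidant response element core 13 bases before the start and 1 Maf core motif. Of 32851 mouse promoter windows of this length, 43.1% held the Myb core, 10.2% the antioxidant response element core and 16.1% the Maf core motif. The promoter of Nfe2l2 also held 1 Myb core and 1 antioxidant response element core, and that of Bach1 held 1 Myb core and 1 Maf core motif. Of 3 Maff windows 1 held the antioxidant response element core and another the Myb core. Of 5 Nfe2l1 windows, some of which overlap, 2 held the Myb core and 3 the Maf core motif. In the single promoter window of Bach2 none of these motifs was found. The AP-1 core (TGANTCA, in 6.75% of all windows) was in no window of the 7 genes. The Maf and antioxidant response element motifs share letters and can overlap.

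The deposited values are linear signals that had been scaled so that the 2% trimmed mean was the same on each array. Signals at or below 33.8, the median of the whole table, are called dim here. Cd4, Cd8a and Rag1, which define double-positive cells, were bright on all arrays, with no signal of their brightest probe sets below 3227.6. Some differences between arrays went with the groups or set 1 array apart. Xist was high on all 4 deficient arrays and on sufficient replicate 1 (4129 to 5736) and low on the other 3 sufficient arrays (23.4 to 36.7). This high or low level, called Xist class below, nearly followed the groups. What goes with it and what goes with the group label cannot be told apart, except through sufficient replicate 1. An 18S rRNA control probe set read 7143 on deficient replicate 4 and 676.1 to 1459 elsewhere. Myb, the targeted gene, was not lower on deficient arrays on any of its probe sets. The brightest read 9362 ± 1151 (SD, n = 4) on sufficient and 11290 ± 543 on deficient arrays, with no overlap, a log2 difference of 0.28 (limma adjusted p = 0.0619). Probe set 1422734_a_at rose by 0.36 (limma adjusted p = 0.0298 over probe sets) and 1450194_a_at differed by 0.04 (limma adjusted p = 0.813 over probe sets). The probes are not placed relative to the floxed part in the sources used here.

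Maf and Mafg rose on the deficient arrays and Mafk fell slightly, while Maff, Bach1, Bach2, Nfe2l1 and Nfe2l2 did not pass the test. Each gene was represented by its brightest probe set, and all 8 genes were tested, as they passed the filter of a signal above the dim limit on at least 4 arrays. Of these, 2 were called higher, where 5.89% of 9941 tested genes were, and 1 lower, where 4.08% were (limma with Benjamini-Hochberg adjustment, threshold 0.05). The median log2 difference of the 8 genes was -0.13, and that of all tested genes 0.02. The sufficient and deficient readings were fully separate for 3 of the 8 genes, against 17.0% of tested genes. At the level of probe sets, 16 of the 18 could be tested, but 4 of Maf passed the filter through the deficient arrays alone, where they were high, and are not counted here. Of the 8 member probe sets above the dim limit on every array, 3 were called higher, both of Mafg and the brightest of Maf. Of all 19100 tested probe sets, which include some dim on part of the arrays, 3.68% were. The share among probe sets above the limit on every array was not computed. No member probe set was called lower, where 3.30% of the 19100 were. A limma p below 0.05 before adjustment, with a lower signal, was given to 4 of the 16 (Mafk, Maff and both of Bach1) and to 11.1% of tested probe sets.

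**Figure D1:**
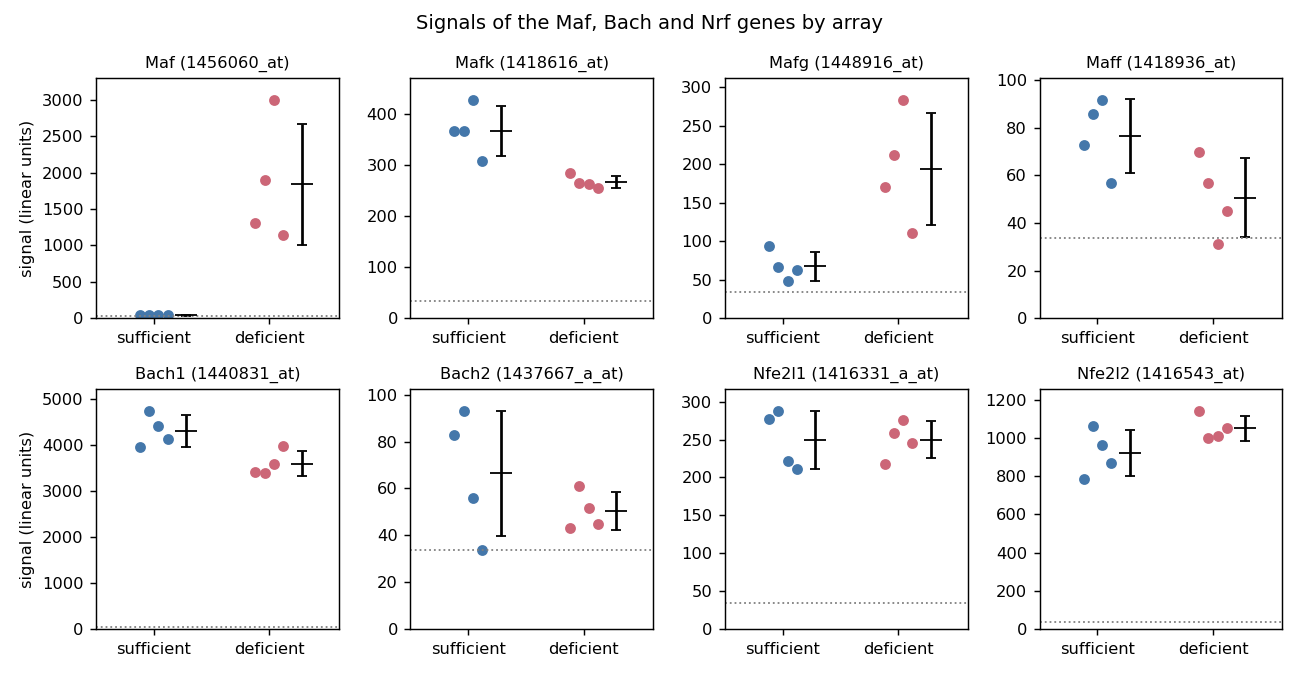
Signal in linear units (vertical axes, starting at 0) of the brightest probe set of each of the 8 genes, with a point for each of the 4 sufficient and 4 deficient arrays and the mean and SD beside them; the dotted line is the dim limit of 33.8. Maf lies at 37.6 to 46.4 on sufficient and 1149 to 2996 on deficient arrays, Mafg and Mafk separate by group, and the other genes overlap.

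Maf, the large Maf gene, went from a signal near the dim limit to a high one. Its brightest probe set, 1456060_at, read 37.6, 46.4, 38.3 and 43.7 on sufficient replicates 1 to 4. On deficient replicates 1 to 4 it read 1305, 1904, 2996 and 1149. The groups lay far apart, and sufficient replicate 1, the lone sufficient array with high Xist, had the lowest reading of all. Maf differed by a log2 of 4.91 ± 0.25 (SE; 95% interval 4.37 to 5.45; limma adjusted p = 2.63e-06), which stood at rank 4 of 9941 genes from the highest. In a fit with Xist class as a covariate, where sufficient replicate 1 alone bears on the group difference, Maf differed by 5.01.

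Of the 6 Maf probe sets in the annotation 4 more were high on deficient arrays and dim on every sufficient array, so their folds are lower bounds against the dim limit. Probe set 1447849_s_at read 4.6 to 13.4 on sufficient and 201.1 to 883.1 on deficient arrays, at least 11.8-fold higher. Probe set 1437473_at was at least 11.3-fold higher, 1435828_at at least 5.23-fold and 1444073_at at least 3.22-fold. The last probe set, 1447945_at, was dim on 4 sufficient and 2 deficient arrays (4.0 to 53.8 over all 8) and was not tested. The deficient mice differed among themselves in the same order on these 4 probe sets and on 1456060_at: replicate 3 was highest, then replicates 2 and 1, and replicate 4 was lowest. The highest deficient reading was 2.61 times the lowest on 1456060_at and 3.66 to 4.39 times the lowest on the other 4. Replicate 4 is the array with the high 18S rRNA reading, and the part of that in its lower Maf signal was not tested. Without it Maf differed by 5.10.

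Of the small Maf genes, Mafg rose, Mafk fell and Maff did not pass. Mafg probe set 1448916_at read 93.4, 66.4, 48.3 and 63.0 on sufficient and 169.9, 212.6, 283.3 and 110.2 on deficient replicates 1 to 4. All deficient arrays lay above all sufficient ones, and the deficient mice stood in the same order as for Maf. The log2 difference was 1.28 ± 0.25 (SE; 95% interval 0.73 to 1.84; limma adjusted p = 0.00946), a 2.43-fold change on the log2(signal + 16) scale. The other Mafg probe set, 1434054_at, rose from 72.8 ± 18.5 to 128.2 ± 23.9 (SD, n = 4), a log2 difference of 0.71 with a limma adjusted p of 0.0488 over probe sets. Here replicate 2 was the highest deficient mouse, and replicate 4 again the lowest. Sufficient replicate 1 had the highest sufficient reading on 1448916_at, and with Xist class as a covariate Mafg differed by 0.87 (limma adjusted p = 0.476).

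**Figure D2:**
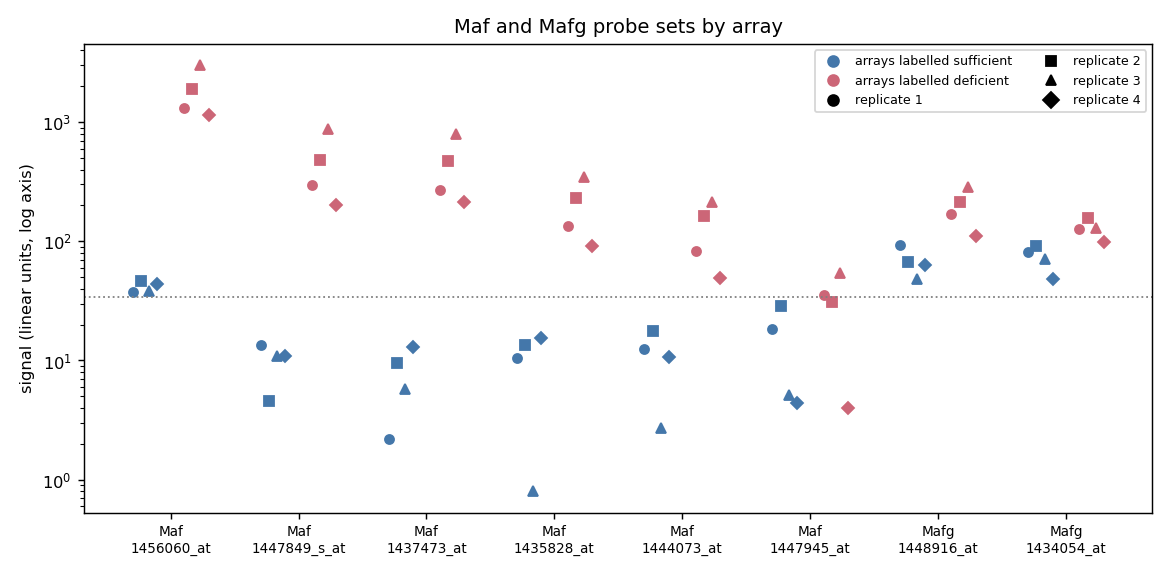
Signal on a log axis (linear units) of the 6 Maf and 2 Mafg probe sets, each with the 4 sufficient arrays on the left and the 4 deficient arrays on the right; marker shapes give the replicate number and the dotted line the dim limit of 33.8. Deficient replicate 3 is highest and replicate 4 lowest on the first 5 Maf probe sets and on Mafg 1448916_at, while Maf 1447945_at overlaps between groups.

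Mafk, measured by 1 probe set (1418616_at), moved the other way and by less. It read 366.5, 365.1, 426.1 and 306.4 on sufficient and 284.0, 264.1, 263.2 and 254.7 on deficient replicates 1 to 4. The groups did not overlap, and the deficient mice were close together, with an SD of 12.4 against 48.9 in sufficient mice. Mafk fell by 0.43 ± 0.11 on the log2 scale (SE; 95% interval -0.67 to -0.18; limma adjusted p = 0.0346). This call was near the threshold: over probe sets the limma adjusted p was 0.0526, and it was lost without any of the arrays other than sufficient replicate 4 (limma adjusted p = 0.0536 to 0.113). With Xist class as a covariate Mafk differed by -0.44 (limma adjusted p = 0.445).

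Maff, also with 1 probe set (1418936_at), was low in both groups, at 56.6 to 91.5 on sufficient and 31.2 to 69.9 on deficient arrays. The groups overlapped. From highest to lowest the deficient replicates stood in the order 1, 2, 4 and 3, which was not the order for Maf. The log2 difference was -0.49 with a 95% interval of -0.96 to -0.03, and it did not pass after adjustment (limma adjusted p = 0.176).

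The Bach repressor genes had lower means on deficient arrays but did not pass the test. Bach1 probe set 1440831_at read 3956, 4748, 4415 and 4133 on sufficient and 3428, 3385, 3591 and 3989 on deficient replicates 1 to 4. Only deficient replicate 4 reached into the sufficient range. The log2 difference was -0.26 ± 0.08 (SE; 95% interval -0.44 to -0.08; limma adjusted p = 0.0657). Without deficient replicate 4 Bach1 passed, at -0.31 (limma adjusted p = 0.0299). Bach1 also passed with the mean of its probe sets (-0.35, limma adjusted p = 0.0309) and with array weights (-0.29, limma adjusted p = 0.0148). With Xist class as a covariate Bach1 differed by -0.14. The second Bach1 probe set, 1449311_at, read 625.7 to 744.0 on sufficient and 361.4 to 609.8 on deficient arrays. Its groups did not overlap, with a log2 difference of -0.43 (limma adjusted p = 0.126 over probe sets). The probe sets disagreed on deficient replicate 4, which was the highest deficient array on 1440831_at and the lowest on 1449311_at. Bach2 was near the dim limit on all 3 of its probe sets, none of which read above 93.1 on any array. Its brightest, 1437667_a_at, read 33.8 to 93.1 on sufficient and 43.3 to 61.0 on deficient arrays, a log2 difference of -0.26 with a 95% interval of -0.79 to 0.27 (limma adjusted p = 0.565). On the other Bach2 probe sets the differences were -0.44 and -0.06 (limma adjusted p = 0.267 and 0.896 over probe sets).

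The Nrf genes did not pass. Nfe2l2, which encodes Nrf2, read 783.7, 1063, 962.6 and 870.2 on sufficient and 1142, 997.9, 1008 and 1055 on deficient replicates 1 to 4 (1416543_at). The groups overlapped, and the log2 difference was 0.20 with a 95% interval of -0.03 to 0.42 (limma adjusted p = 0.278). A second Nfe2l2 probe set, 1457117_at, was dim on all but 1 array and was not tested. Nfe2l1, which encodes Nrf1, read 211.4 to 287.9 on sufficient and 218.0 to 276.4 on deficient arrays (1416331_a_at). Its log2 difference was 0.01 with a 95% interval of -0.27 to 0.29 (limma adjusted p = 0.979), and its sign changed with the normalization (-0.02 after quantile normalization).

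**Figure D3:**
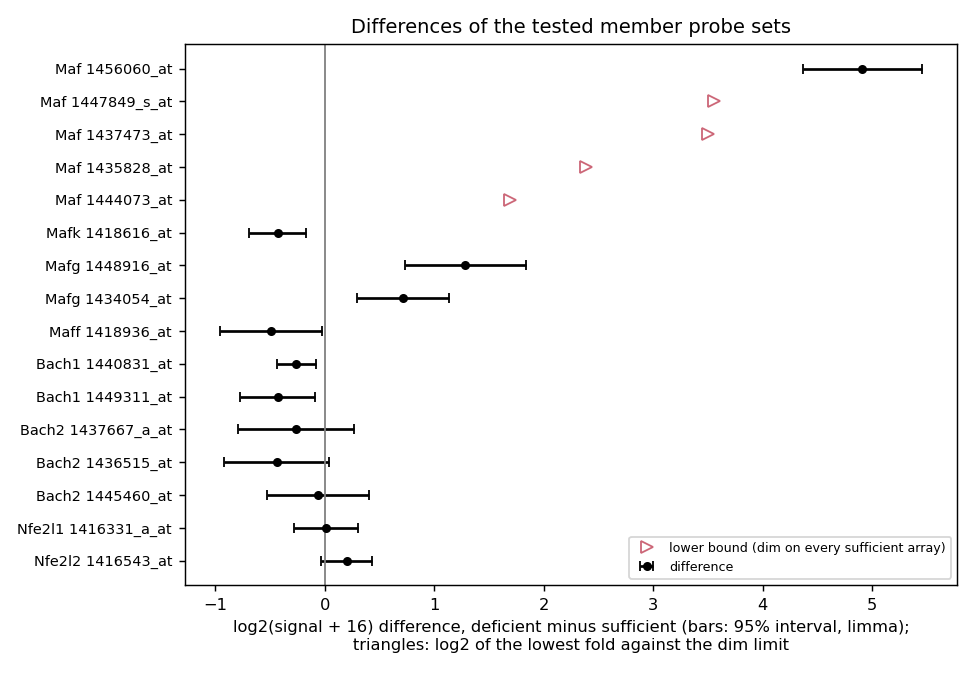
Log2(signal + 16) difference, deficient minus sufficient (horizontal axis), of the tested member probe sets (points), with 95% intervals from the limma fit over probe sets, 4 arrays per group. Triangles mark the 4 Maf probe sets that were dim on every sufficient array, at the log2 of their lowest fold against the dim limit (1.69 to 3.56), with no interval. The brightest Maf probe set lies at 4.91 and the 2 Mafg probe sets at 0.71 and 1.28, while the other differences lie between -0.49 and 0.20.

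Genes of the pathways that these factors serve were taken from fixed lists and moved in part. Of 20 tested antioxidant response genes 2 fell, 0 rose and 18 did not pass, with a median log2 difference of 0.00, where all tested genes had 0.02. Before adjustment, limma gave 5 of them a p below 0.05 upward and 2 downward, where 14.7% and 10.3% of all 9941 tested genes had one. Slc7a11, the cystine transporter that feeds glutathione synthesis, read 193.3, 266.1, 375.2 and 418.4 on sufficient and 94.7, 74.8, 50.0 and 107.3 on deficient replicates 1 to 4. The groups did not overlap, and Slc7a11 fell by 1.73 ± 0.25 on the log2 scale (SE, limma adjusted p = 0.00186), with -2.11 on its other probe set. Cbr1, a carbonyl reductase gene, fell by 0.46 (limma adjusted p = 0.0124; 0.0518 without sufficient replicate 3). The glutathione synthesis genes Gclm and Gclc differed by 0.37 and -0.05 and the ferritin gene Fth1 by 0.05, none past the test. Hmox1, the haem oxygenase gene that Bach1 represses, read at most 35.3 on any array and the quinone reductase gene Nqo1 at most 34.9, and neither passed the filter. Array weights gave 2 rises in this list, and leaving out deficient replicate 4 gave 1.

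Of 9 tested regulators of Nrf2 and Nrf1, among them Keap1 and Cul3, 0 were called by limma (smallest adjusted p = 0.155, with 1 at an unadjusted p below 0.05), and the brightest, Vcp, differed by 0.10. All 32 proteasome genes were tested and 0 were called, with differences from -0.20 to 0.12, a smallest limma adjusted p of 0.251 and 0 at an unadjusted p below 0.05. Their brightest, Psma6, differed by -0.12 on 1437144_x_at, and its other probe sets went the same way by more. On 1416506_at Psma6 differed by -0.33 with no overlap of the groups (limma adjusted p = 0.051 over probe sets). The groups overlapped on 1435316_at (-0.54) and 1435317_x_at (-0.23), with limma adjusted p = 0.116 and 0.298 over probe sets. Psma6 was called lower when probe sets ending in _x_at or _s_at were left out (-0.33, limma adjusted p = 0.0406) and with the mean of its probe sets (-0.30, limma adjusted p = 0.0373), the single proteasome call under either setting. The other Maf and CNC genes with a probe set, Nrl, Nfe2 and Nfe2l3, were dim on all 8 arrays.

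Of 6 tested genes reported as c-Maf genes in T cells 2 rose and 0 fell in limma (3 and 0 at an unadjusted p below 0.05), with a median log2 difference of 0.52. With the filter at 4 times the dim limit 1 was called higher. Over all 9941 tested genes 5.89% rose and 4.08% fell (14.7% and 10.3% before adjustment). Another 10 genes of the list were too dim to be tested. Il2ra, the interleukin-2 receptor alpha chain, read 78.2, 192.6, 30.6 and 31.0 on sufficient and 603.9, 736.7, 1102 and 570.1 on deficient replicates 1 to 4. Its groups did not overlap, and deficient replicate 3 was the highest and replicate 4 the lowest, as for Maf. Il2ra rose by 3.20 ± 0.42 (SE, limma adjusted p = 0.00117). It was above the dim limit on 2 sufficient arrays only and met the filter through the 4 deficient ones. Its difference was 3.54 at a pseudocount of 1 and 2.56 at 64. Rora, a nuclear receptor gene of interleukin-17-producing and innate lymphocytes, rose by 1.19 on 1424034_at (limma adjusted p = 0.00841), from 63.5 ± 15.2 to 169.4 ± 57.4 (SD, n = 4). On its other tested probe sets Rora differed by 0.77 to 1.12 (limma adjusted p = 0.029 to 0.0884 over probe sets), and 1455165_at alone of them passed. That probe set and 1436325_at were above the dim limit on 1 sufficient array only. The groups overlapped on 1420583_a_at and 1436325_at. The 4 remaining Rora probe sets were too dim to be tested. The cytokine genes Il4, Il10, Il21, Il2 and Il17a were dim on all 8 arrays, as were Il1r1 and Ccr6.

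Of 10 tested genes reported as repressed by Bach2 in T cells 3 rose and 0 fell in limma (5 and 1 at an unadjusted p below 0.05), with a median log2 difference of 0.28. The shares over all tested genes were 5.89% and 4.08% (14.7% and 10.3% before adjustment). The kinase gene Map3k8 rose by 2.09 ± 0.23 (SE, limma adjusted p = 0.000463), from 71.9 ± 33.1 to 339.7 ± 28.4 (SD, n = 4). The interleukin-12 receptor gene Il12rb1 rose by 1.54 (limma adjusted p = 0.000691). The chemokine receptor gene Ccr4 also rose (limma adjusted p = 0.00583), but it was above the dim limit on 1 sufficient array only and met the filter through the 4 deficient ones. Its log2 difference of 2.06 therefore hangs on the pseudocount, with 2.90 at a pseudocount of 1 and 1.23 at 64. With array weights 5 genes of this list were called higher. Prdm1, the repressor gene best known as a Bach2 target, differed by 0.22 and Irf4 by 0.87, neither past the test (limma adjusted p = 0.528 and 0.0853). With Xist class as a covariate, 0 genes of these lists were called, where 15 of 9941 genes were called higher and 11 lower. The differences in that fit were 2.98 for Il2ra, 1.74 for Map3k8, 1.48 for Il12rb1, 1.49 for Ccr4, 0.94 for Rora, -0.43 for Cbr1 and -1.14 for Slc7a11 (limma adjusted p = 0.0834 to 0.398).

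**Figure D4:**
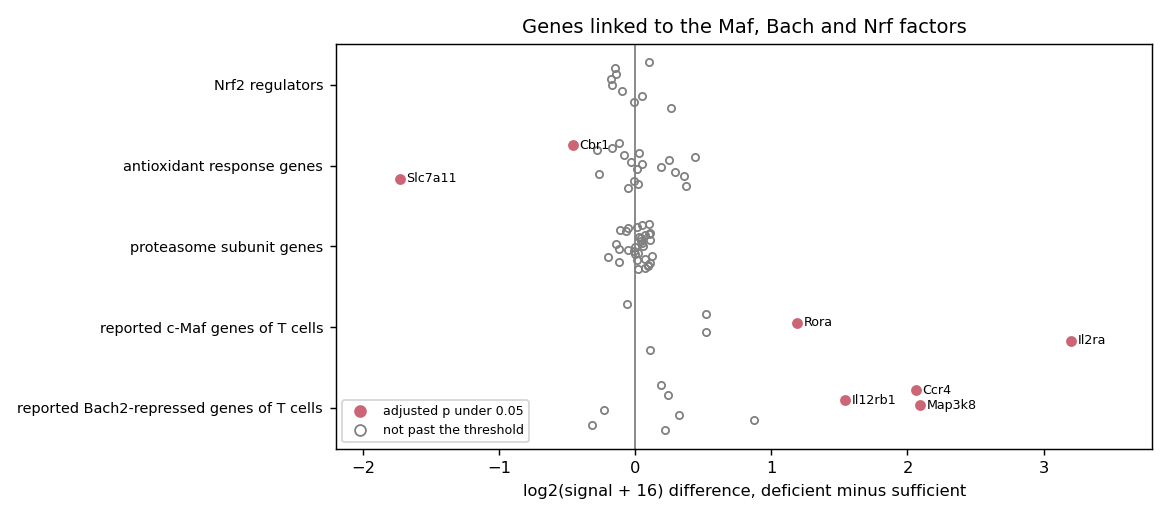
Log2(signal + 16) difference, deficient minus sufficient (horizontal axis), of each tested gene of 5 lists, with filled points for genes past an adjusted p of 0.05. Slc7a11 and Cbr1 lie on the lower side, Il2ra, Rora, Map3k8, Ccr4 and Il12rb1 on the higher side, and the proteasome genes lie within -0.20 to 0.12.

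For Maf and Mafg, the members called with a log2 difference of at least 1, the tested genes with the most similar pattern were sought by the root mean square distance between log2 values over the 8 arrays, each gene centred on its mean. Fosl2, an AP-1 family gene, lay closest to Maf at 0.42, followed by the scavenger receptor family gene 5830411N06Rik at 0.66 and the chemokine receptor gene Ccr7 at 0.89, where the median gene lay at 2.48. The Fosl2 probe set was dim on all sufficient arrays and read 707.0, 810.0, 1144 and 946.5 on deficient replicates 1 to 4. Tspan31, a tetraspanin gene, lay closest to Mafg at 0.15, then Nlrc5, a regulator of MHC class I genes, at 0.17 and Lgals3bp at 0.18, against a median of 0.76. These genes were picked for their likeness on the same 8 arrays, so what they share with Maf or Mafg there is no separate result.

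Maf is also expressed in macrophages and in innate-like T cells, so markers of other cells were read beside it. Of 11 tested macrophage and dendritic cell markers 1 rose, the cathepsin gene Ctss by 1.0, and 10 did not pass. The summed signal of the 17 markers ran from 975.2 to 2050 on sufficient and from 1543 to 1992 on deficient arrays, so the ranges overlapped. The brightest genes in that sum were H2-Aa (means 440.4 and 503.2), Ctss (208.0 and 400.9) and H2-Ab1 (185.4 and 193.7). Cd14 and Aif1 were dim throughout. The 11 tested markers had a median log2 difference of 0.07. The lowest was that of the macrophage receptor gene Csf1r, at -0.19. Csf1r read 72.3 ± 12 on sufficient and 61.2 ± 10.7 on deficient arrays (SD, n = 4). Its other tested probe set, 1419872_at, went the other way by 0.10, at 58.2 ± 19.3 and 63.3 ± 19.4. The groups overlapped on both. Of 9 gamma-delta, NKT and innate-like T cell markers with a probe set 2 could be tested and 1 rose, the granzyme gene Gzma by 0.75. Their sum ran from 2071 to 2571 on sufficient and from 3148 to 4306 on deficient arrays. The brightest of them, Gzma, read 1980 to 2400 and 2962 to 4066. The other tested marker, Nkg7, differed by 0.39 (limma adjusted p = 0.435). Each of the 9 had a higher mean on deficient arrays, but 7 were too dim to be tested. Among these were Sox13 (21.6 and 32.7), Blk (26.6 and 39.5) and Eomes (14.4 and 21.8). Zbtb16, Il17a and Ncr1 were dim on all arrays. Of 7 tested markers of mature single-positive thymocytes 5 rose (Ccr7, Itgb7, Gimap4, Klf2 and H2-K1), while Il7r and Ms4a4b did not pass. Ccr7 was above the dim limit on 2 sufficient arrays only and met the filter through the 4 deficient ones. S1pr1, also of this list, read at most 37.0 and was not tested. The summed signal of the list was 1356 to 2117 on sufficient and 3285 to 5102 on deficient arrays. Of all 9941 tested genes 5.89% were called higher and 4.08% lower. Of 11 double-positive markers 4 fell (Cd24a, Cd1d1, Rag2 and Dntt), with sums of 67164 to 70747 and 61946 to 65803. The erythroid sum ran from 269.1 to 488.1 on sufficient and from 1071 to 1532 on deficient arrays, and of its 2 tested genes Car2, a carbonic anhydrase gene, rose by 2.27 (mean signal 216.6 and 1069) and Hba-a2, an alpha-globin gene, differed by -0.12 (102.0 and 92.8, limma adjusted p = 0.665), while Hba-a1, Car1, Gata1 and Klf1 were dim on all arrays. B cell markers summed to 7174 to 7393 and 7687 to 8622, with 0 of 2 called by limma and 1 at an unadjusted p below 0.05. Most of that sum was Ighm, with mean signals of 6711 and 7616. The 5 markers Cd79a, Ms4a1, Pax5, Blnk and Cd22 were too dim to be tested. In bulk RNA, more cells of a type and more RNA per cell cannot be told apart, and the part of these markers in the changes of Maf, Mafg and Mafk was not tested.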

How the data were processed

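Values are linear signal intensities per probe set that the authors made with GCOS and deposited, per the submitters' processing notes, with no version or settings named there. Detection calls, scan dates and probe positions were not used. The number of arrays limits the precision. Intensities were converted to log2(signal + 16), which understates changes of dim genes. Of 45101 probe sets, 64 controls were left out, 34945 had 1 gene symbol, 932 several and 9160 none. Identifiers of 34741 were found in the RefSeq table of GRCm38.p6 and took its symbols. Probe sets above 33.8 on at least 4 arrays were kept, and each gene took its brightest. The test was that of limma 3.58.1 run in R 4.3.3 (lmFit, eBayes with trend, two-sided, Benjamini-Hochberg over 9941 genes or 19100 probe sets). The method was tested on simulated data with independent normal noise. The simulation held no Xist class, no array set apart and no signal floor, so it does not bear on their effects. Python 3.11.15 and matplotlib 3.10.9 made tables and plots. The labels call the arrays biological replicates. Members, lists and tests were chosen with earlier results of these data known, so list members already seen to change are no independent support; the lists come from general knowledge. The Xist covariate, high or low at a signal of 1000, also followed such results. The text names the 8 members, up to 3 called genes per list and direction, the brightest gene of a list with none, and the 3 genes most like Maf and Mafg. Other genes in the text were chosen after their values were seen.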

Additional observations from a re-analysis of the deposited data

Results flagged for a closer look

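A single array stood apart from its group of 4 in 5 of 86 groups checked, and chance flags about 1 in 20. On Bach1 probe set 1449311_at, sufficient replicate 1 read 625.7 against 735.0 to 744.0, and deficient replicate 4 read 361.4 against 575.3 to 609.8. Cbr1 stood at 790.1 on sufficient replicate 3, against 692.6 to 699.0 on the rest of that group. Csf1r stood at 77.2 on deficient replicate 4, against 54.5 to 56.9. Xist stood at 4358.5 on sufficient replicate 1, against 23.4 to 36.7.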

How the results depend on the processing

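The Maf difference stayed called under all 21 alternatives, from 3.65 with the mean of its probe sets to 5.34 with a pseudocount of 1. These include the fit with the Xist level, where only sufficient replicate 1 bears on the group difference. Mafg stayed called under 19 of 20 and lost the call with the Xist level as a covariate; a filter at 4 times the dim limit left it untested. The count of members higher was therefore 1 under those settings, and the count of member probe sets higher (7 as tested, with the 4 Maf probe sets dim on every sufficient array) 2 and 3. Without single arrays these counts ran from 2 to 2 and from 6 to 7. The count of members lower was 0 with arrays centred on the median, without a dim filter, at an adjusted p of 0.01 and with the Xist level, 2 with the mean of probe sets and with array weights, and 0 to 1 without single arrays. The count of member probe sets lower was 1 after quantile normalization and with the stricter filter, 2 with array weights, and 0 to 1 without single arrays. Nfe2l1 changed sign, to -0.02 after quantile normalization or median centring and -0.15 with the Xist level, and ran from -0.06 to 0.08 without single arrays; Vcp was -0.08 with the Xist level. Titles number replicates 1 to 4 in both groups, but deviations of same-numbered arrays correlated at -0.27 to 0.36. Sufficient replicate 4 was the only array that correlated best with its own number in the other group. Nothing says that the numbers pair the mice. The replicate block left 2 members higher and 1 lower and changed no call of a member, with 618 genes higher and 417 lower. Genes called higher and lower, 586 and 406, went to 285 and 216 without sufficient replicate 3, to 338 and 289, 299 and 237, and 327 and 268 without deficient replicates 1, 2 and 3, to 1035 and 710 with array weights, to 211 and 160 at 0.01, and to 15 and 11 with the Xist level, where only sufficient replicate 1 bears on the group difference. The cause of these shifts was not tested. Signals near the dim limit restrict what can be seen of Bach2 and Maff.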
